A study of Mus musculus with 2 samples.

Results

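Cytochrome P450 genes were taken as the protein-coding genes of the mouse GENCODE vM21 annotation whose symbol starts with Cyp, a number and a letter, or is Cyp51. This rule found 100 genes among 21938 protein-coding genes on chromosomes 1 to 19, X and Y. Their open chromatin was described in liver of mouse embryos at 13.5 days, measured by DNase-seq, in which DNA ends released by the nuclease DNase I are sequenced and pile up where chromatin is accessible. The mice were of strain C57BL/6N,129, with LCR deletion and HET globin mutation as the genotype labels. The extent of the deletion and the genotype of single embryos are not explained by the labels. Biological replicates 1 and 2 make up 1 group of 2 libraries, whose biosamples differ but carry 1 donor identifier, and sex was not collected. Where the samples share a source, the spread between them may be partly technical. Both carry the same genotype label and there was no control group, so nothing below compares genotypes, ages or treatments.

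Cytochrome P450 enzymes are heme proteins that insert oxygen into their substrates with electrons supplied by a reductase or a ferredoxin. The members of families 1 to 3 are best known in adult liver for clearing drugs and other foreign compounds, and many of them arose by tandem duplication. Other families are dedicated to single steps of cholesterol, bile acid, steroid hormone, vitamin D and retinoic acid metabolism. Fetal liver holds few of the adult drug enzymes and is at the same time a main site of red cell formation.

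The longer peak list held 47198 peaks in replicate 1 and 36523 in replicate 2, with median values of 1.23 and 1.25 on the scale of the authors' peak signal, whose normalisation is not stated. Of 12 erythroid markers, 11 had a promoter peak in both libraries, among them Nfe2, Epor and Tfrc. Only 2 of 12 hepatoblast markers (Foxa3 and Trf) and 1 of 10 mature hepatocyte markers (Ass1) did so, and the albumin and alpha-fetoprotein genes Alb and Afp had none in either library. The hepatoblast markers Ttr (0.690) and Apoa1 (0.641) had one in replicate 1 alone. The labelled tissue is liver, but its defining hepatocyte markers were therefore largely without a called promoter peak. Of the other marker lists, 2 of 8 macrophage and myeloid, 1 of 6 megakaryocyte, 1 of 6 endothelial, 4 of 8 stellate and mesenchymal, and 0 of 5 cholangiocyte genes had one in both. Over all protein-coding genes the share with one in both was 53.1%. The libraries come from whole tissue, so fewer cells with an open site and less access per cell cannot be told apart. The part of cell composition in the results below was not tested.

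Few P450 promoters were open. A promoter was called open in a library when a peak lay within 1000 bases of a start of a protein-coding transcript of the gene. By that rule 17 of the 100 P450 genes were open in replicate 1 and 17 in replicate 2, against 57.5% and 54.4% of all protein-coding genes. In both libraries 15 were open, or 15% of the members, beside 53.1% of all genes. No peak in either library was found at 81 members, beside 41.3% of all genes. A further 2 were open in replicate 1 alone and 2 in replicate 2 alone. With the authors' shorter peak list 10 members were open in both (48% of all genes), and with the upper 50% of peaks by value 6 were (45.1% of all genes). With the starts of any transcript, protein-coding or not, 16 were (54.1% of all genes).

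The open promoters were also low. Over the 15 members open in both libraries the median of the highest promoter peak was 1.40 in replicate 1 and 1.15 in replicate 2, while over all 11656 genes open in both it was 5.83 and 3.72. The median member ranked at percentile 12.9 of those genes. Cyp46a1 and Cyp51, 2 in number, lay above the all-gene median in both libraries, 12 members lay below it in both, and Cyp20a1 lay above it in replicate 2 only.

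**Figure D1:**
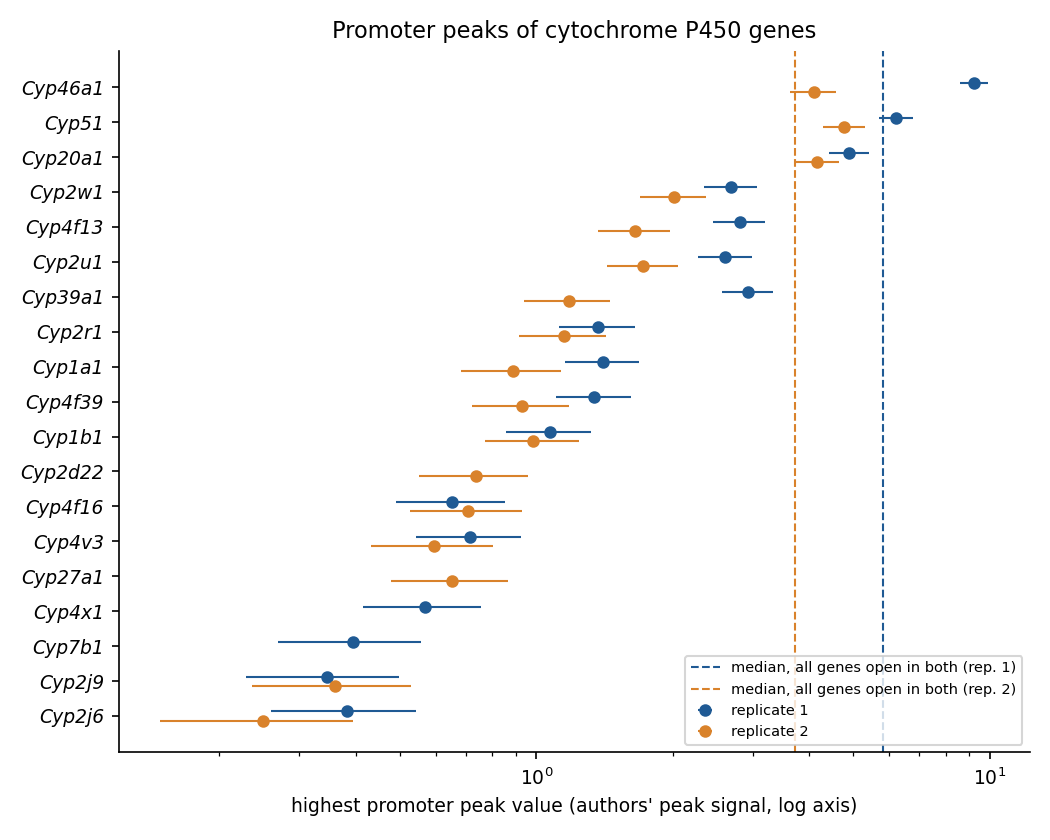
Highest promoter peak value of each of the 19 P450 genes with a promoter peak, on a log axis in the authors' peak signal, in replicate 1 (blue) and replicate 2 (orange); bars are 95% Poisson intervals that take 1 step of the value as 1 read, and dashed lines are the medians of all genes open in both libraries. Cyp46a1 and Cyp51 alone sit right of both medians, and Cyp2j6 and Cyp2j9 are at the low end.

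The highest promoter in replicate 1 and by mean percentile belonged to Cyp46a1, the cholesterol hydroxylase known mainly from neurons, where it starts cholesterol removal. Its peak had a value of 9.25 in replicate 1 (95% Poisson interval 8.60 to 9.94) and 4.09 in replicate 2 (3.64 to 4.58), and the intervals do not overlap. In replicate 2 Cyp51 and Cyp20a1 were higher. These intervals assume that 1 step of the value is 1 read and cover counting error only, not the scaling between libraries. The log2 ratio of replicate 2 to replicate 1 at Cyp46a1 was -1.18. It lay within the range from the 5th to the 95th percentile of genes of similar height (-1.36 to -0.25). The peak lay wholly before the start, from position -260 to -181 relative to it in replicate 1 and from -400 to -181 in replicate 2. A weaker shared site lay further upstream at chr12:108333101-108333300 (1.95 and 1.39), and Cyp46a1 was its nearest gene.

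Cyp51, the lanosterol demethylase of cholesterol synthesis, had 6.22 in replicate 1 (5.69 to 6.79) and 4.78 in replicate 2 (4.29 to 5.31). Its highest peak had the same ends in both libraries and ran from position -114 to 365 relative to the start. Cyp20a1, a single-copy gene whose substrate is not established, had 4.90 and 4.16, again with the same ends in both, and its intervals overlap (4.43 to 5.41 and 3.70 to 4.66). Cyp4f13, of the fatty acid hydroxylase family, had 2.81 and 1.65 at positions -201 to 18 of a start, and its intervals do not overlap. Its log2 ratio of -0.77 lay within the same percentile range of genes of similar height (-1.06 to 0.34).

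The parts of these promoter peaks that precede the first start are shown because, by mean percentile over both libraries, they are the highest P450 promoters with a footprint in both and a peak that reaches before the first start. Cyp2w1 ranks above Cyp4f13 but is not shown, since its highest peak lies after its first start. A footprint is a short stretch, called by the authors, that is protected from cleavage inside an open site. The sequences are from the NCBI GRCm38.p6 genome, the build of mm10, at most 150 bases each, read 5′ to 3′ on the strand of the gene. Capitals mark bases inside a footprint of either library. Cyp46a1 is chr12:108334051-108334200 on the plus strand, Cyp51 chr5:4104747-4104860 on the minus strand, Cyp20a1 chr1:60343173-60343322 on the plus strand and Cyp4f13 chr17:32947403-32947552 on the minus strand.
Cyp46a1: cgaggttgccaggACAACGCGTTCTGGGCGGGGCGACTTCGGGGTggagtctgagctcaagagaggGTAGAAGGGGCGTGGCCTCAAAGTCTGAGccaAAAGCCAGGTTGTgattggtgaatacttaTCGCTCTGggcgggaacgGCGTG
Cyp51: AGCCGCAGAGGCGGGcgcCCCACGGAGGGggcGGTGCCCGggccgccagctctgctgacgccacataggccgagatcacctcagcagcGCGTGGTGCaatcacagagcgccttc
Cyp20a1: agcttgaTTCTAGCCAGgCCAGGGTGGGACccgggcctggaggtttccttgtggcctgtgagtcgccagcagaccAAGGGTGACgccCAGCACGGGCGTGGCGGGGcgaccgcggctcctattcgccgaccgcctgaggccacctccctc
Cyp4f13: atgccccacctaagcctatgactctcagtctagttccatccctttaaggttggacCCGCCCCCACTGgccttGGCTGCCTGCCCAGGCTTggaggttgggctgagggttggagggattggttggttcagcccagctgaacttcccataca

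Footprints covered 87 of the 150 bases printed for Cyp46a1, 43 of 114 for Cyp51, 50 of 150 for Cyp20a1 and 30 of 150 for Cyp4f13. The letters GCGTG, the core that the aryl hydrocarbon receptor AHR binds, stood 255 and 185 bases before the start of Cyp46a1, 26 before that of Cyp51 and 55 before that of Cyp20a1. The same letters also occur inside variants of the GC box. The GC box letters GGGCGG, bound by SP factors, stood 305 and 196 bases before the start of Cyp46a1, 86 before that of Cyp51 and 95 before that of Cyp4f13. The letters CCAAT, bound by NFY, stood 218 bases before the start of Cyp46a1 and 35 before that of Cyp4f13. The letters CACCC, bound by KLF factors, stood 289 bases before the start of Cyp46a1 and 129 and 73 before that of Cyp20a1. Matches were sought on both strands, and a match is a description of letters, not a bound site.

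In families 1 to 3, the enzymes of foreign compounds and fatty acids, 6 of 60 genes were open in both libraries and 53 in neither. Cyp2r1 is left to the vitamin D enzymes below. Cyp2w1, a gene known from fetal gut and colon tumours, had 2.69 and 2.01, but the site lay 745 bases after an internal start in replicate 1 and 785 in replicate 2. Counted from the first start of Cyp2w1 it lay 2704 and 2744 bases inside the gene. Cyp2u1, a long-chain fatty acid hydroxylase outside the drug clusters, had 2.61 and 1.72 across its start. These were the highest values among families 1 to 3.

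Cyp1a1, the hydrocarbon-activated enzyme induced through AHR, had 1.40 in replicate 1 and 0.887 in replicate 2. Its site lay in an intron, from 255 to 432 bases after the start in replicate 1 and inside that span in replicate 2. A footprint there in replicate 1, which overlapped one of replicate 2, held a match to the CTCF motif and to the KLF letters CACCC. Cyp1b1, another AHR target, had 1.07 and 0.984, with the site starting 580 bases upstream in both libraries, and a shared footprint in it held GCGTG. Cyp1a2, the third gene of family 1, had no promoter peak, and the nearest one lay 4480 bases away at Cyp1a1.

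The lowest open promoters were those of Cyp2j6 (0.382 and 0.250) and Cyp2j9 (0.345 and 0.360), members of the arachidonic acid epoxygenase group. The peaks of the 2 libraries overlapped at Cyp2j6 but not at Cyp2j9. Cyp2d22, of the drug-metabolising Cyp2d group, had 0.735 in replicate 2 and no peak in replicate 1. None of the 15 Cyp2c, 9 Cyp3a, 8 Cyp4a, 5 Cyp2b or 4 Cyp2a genes had a promoter peak in either library, and neither did Cyp2e1, the ethanol-inducible enzyme. In family 3 this covers all 9 members, beginning with Cyp3a11, Cyp3a13 and Cyp3a16. In family 2 it covers 43 of 49, beginning with Cyp2a12, Cyp2a22 and Cyp2a4.

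In family 4, which hydroxylates the ends of fatty acids and eicosanoids, 4 of 20 genes were open in both libraries and 15 in neither. Besides Cyp4f13 these were Cyp4f39, an enzyme of skin lipid formation (1.34 and 0.929), Cyp4v3 (0.715 and 0.596) and Cyp4f16 (0.653 and 0.707). Cyp4f16 was 1 of the 2 members with a higher value in replicate 2, the other being Cyp2j9. Cyp4x1 had a peak of 0.567 in replicate 1 and none in replicate 2. Cyp4a10, Cyp4a12a and Cyp4a12b, fatty acid hydroxylases of adult liver and kidney, had none.

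Of the 6 bile acid and oxysterol enzymes, 2 were open in both libraries, Cyp46a1 and Cyp39a1. Cyp39a1, an oxysterol hydroxylase, had 2.93 in replicate 1 (2.57 to 3.33) and 1.18 in replicate 2 (0.941 to 1.46). Its peak overlapped an exon of the mitochondrial carrier gene Slc25a27, whose start lies 211 bases from that of Cyp39a1. In both libraries the peak covered a start of Slc25a27 and ended 125 bases before the start of Cyp39a1. The peak therefore cannot be given to Cyp39a1 alone. With peaks nearer to another gene left out, Cyp39a1 was lost and 14 members were open in both libraries. Only Cyp39a1 and Cyp24a1, 2 of the 100 members, start within 1000 bases of another protein-coding gene, beside 13.3% of all genes. Cyp7b1, an oxysterol hydroxylase of the alternative bile acid pathway, had 0.394 in replicate 1 only. Cyp27a1, the mitochondrial sterol hydroxylase that opens the same pathway, had 0.652 in replicate 2 only. Cyp7a1, the rate-limiting enzyme of the classical pathway, and Cyp8b1, which sets the share of cholic acid, had no promoter peak.

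None of the 6 steroid hormone enzymes (Cyp11a1, Cyp11b1, Cyp11b2, Cyp17a1, Cyp19a1 and Cyp21a1) had a promoter peak. Of the 3 vitamin D enzymes, Cyp2r1, which makes the circulating form of the vitamin, was open in both libraries with 1.37 and 1.15. Cyp27b1, which activates that form, and Cyp24a1, which breaks it down, were not. All 3 retinoic acid hydroxylases, Cyp26a1, Cyp26b1 and Cyp26c1, were without a promoter peak.

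The members nearest the distance limit were Cyp1b1 (580 bases) and Cyp2w1 (785 in replicate 2) inside it, and Cyp26b1 outside it. The Cyp26b1 site lay in an intron, 1743 bases from a start in replicate 1 and 1733 in replicate 2, and had 1.36 and 1.39. Cyp17a1 followed, with a site of 0.846 in replicate 2 alone, 1974 bases from the start of a protein-coding transcript. With the starts of any transcript, Cyp17a1 had a promoter peak in replicate 2 and none in replicate 1.

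**Figure D2:**
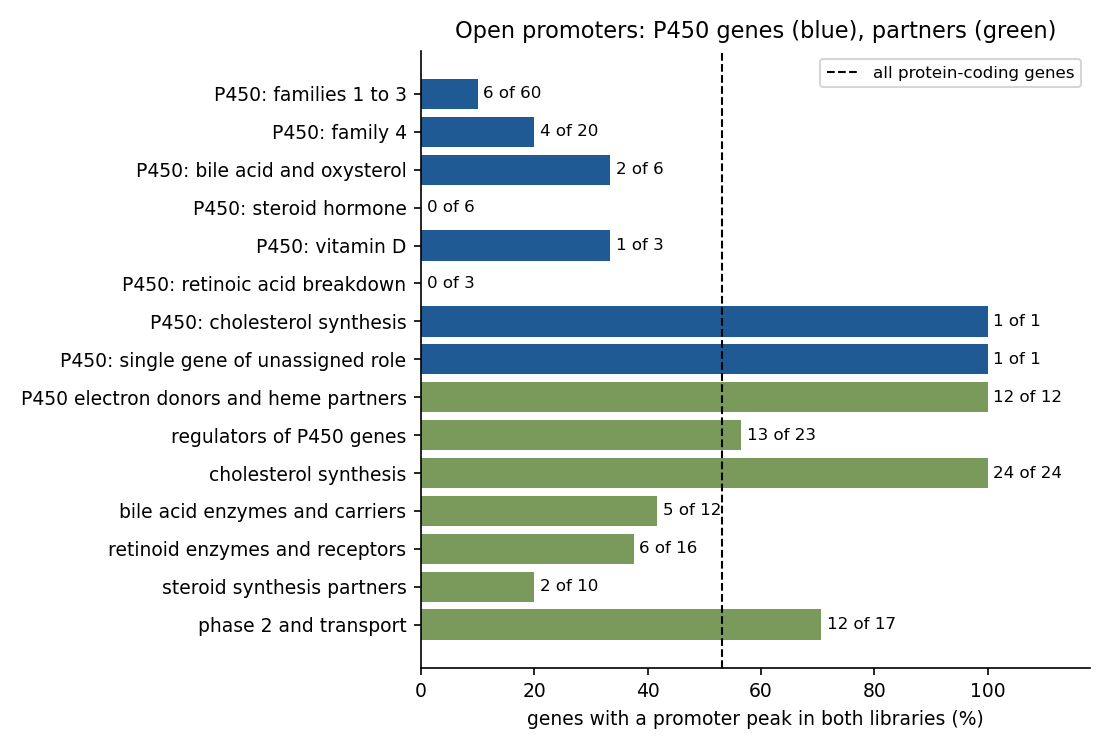
Percent of genes with a promoter peak in both libraries, by role of the P450 gene (blue) and for lists of genes that work with P450 enzymes (green), with counts beside the bars; the dashed line is the 53.1% of all protein-coding genes. The 60 genes of families 1 to 3 stand at 6, while the electron donors (12 of 12) and cholesterol synthesis (24 of 24) are complete.

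Genes that work with P450 enzymes are given from lists. All 12 electron donors and heme partners had a promoter peak in both libraries. The highest by mean percentile over both libraries were Por, the reductase that feeds every microsomal P450 (23.4 and 8.51), Pgrmc2, a heme-binding membrane protein (15.9 and 6.82), and Cyb5r3, the cytochrome b5 reductase (13.1 and 6.43). In replicate 1 Fdxr, the ferredoxin reductase, was second to Por with 17.03, and it had 5.41 in replicate 2. All 24 genes listed around cholesterol synthesis, the pathway of Cyp51, were open too, the highest by mean percentile being Insig1 (15.1 and 8.14), Mvk (12.8 and 7.57) and Mvd (16.8 and 6.24). Cyp51, at 6.22 and 4.78, lay below all 3. Its mean percentile of 59.0 lay within the span of the list, from 34.4 (Nsdhl) to 91.8 (Insig1).

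Of 23 regulators of P450 genes 13 were open in both libraries (56.5%), a share close to that of all genes. The highest by mean percentile were Nfe2l2, the oxidative stress factor (22.6 and 7.999), Rxrb, a partner of nuclear receptors (16.7 and 8.43), and Srebf2, the sterol sensor's transcription factor (17.5 and 7.35). Ahr itself had 2.83 and 1.82, and its partner Arnt had 9.22 and 5.03. The liver factor Hnf4a and the bile acid repressor Nr0b2 had no promoter peak in either library, and neither did the drug sensors Nr1i2 (PXR) and Nr1i3 (CAR). Ahr, Arnt, Nr1i2 and Nr1i3 were named after their values were seen.

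Among phase 2 enzymes and transporters, which act on P450 products, 12 of 17 were open in both libraries, led by the thiopurine methyltransferase gene Tpmt (19.4 and 9.72). Abcc2, Slco1b2 and Sult1a1 had no promoter peak. Lower shares were found for bile acid enzymes and carriers (5 of 12, with Abcb11, Acox2 and Akr1d1 at none), retinoid enzymes and receptors (6 of 16, with Aldh1a1, Crabp1 and Crabp2 at none) and steroid synthesis partners (2 of 10, Srd5a1 and Tspo).

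Most P450 genes lie in tandem arrays. With members joined when at most 250 kb apart, 75 of the 100 fell into 11 clusters and 25 stood alone. Of the clustered members 6 were open in both libraries (8%), and of the lone members 9 (36%). The lone open genes were Cyp20a1, Cyp46a1, Cyp51, Cyp39a1, Cyp2w1, Cyp2u1, Cyp2r1, Cyp1b1 and Cyp4v3. Both shares lie below the 53.1% of all genes.

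The 14 genes from Cyp2c55 to Cyp2c70 lie on chromosome 19 from 39007019 to 40187333. Across these 1.18 Mb there was no peak of any kind in either library, while the genome held 17.3 and 13.4 peaks per Mb in replicates 1 and 2. The 8 genes from Cyp3a57 to Cyp3a59 on chromosome 5 (0.768 Mb) had 0 peaks in replicate 1 and 3 in replicate 2. The other arrays of 5 or more held 1 to 3 peaks in each library, except 1. The array from Cyp4f39 to Cyp4f13 on chromosome 17 had 17 and 14 peaks in 0.495 Mb, or 34.4 and 28.3 per Mb. Of its 8 members 3 were open in both libraries (Cyp4f39, Cyp4f16 and Cyp4f13). It also encloses 4 zinc finger genes, Zfp871, Zfp811, Zfp799 and Zfp870, of which 3 were open.

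**Figure D3:**
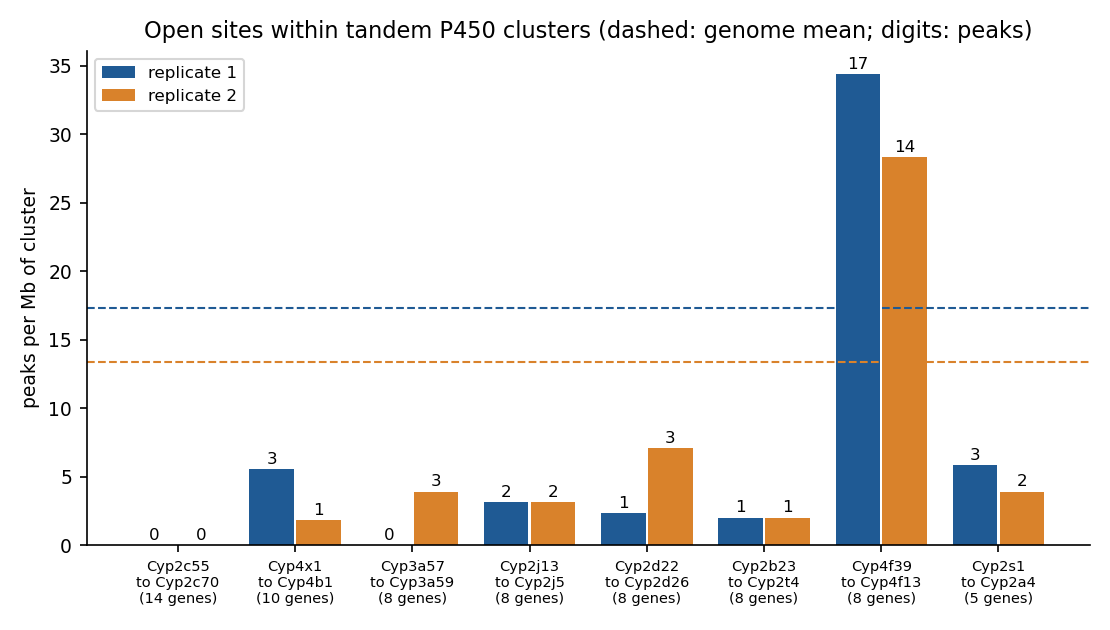
Peaks per Mb in the 8 tandem P450 arrays of 5 or more genes, in replicate 1 (blue) and replicate 2 (orange), with peak counts above the bars and the genome means of 17.3 and 13.4 as dashed lines. The Cyp2c array is at 0 in both libraries, and the Cyp4f array alone stands above the genome means.

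Near-identical copies matter for such calls, since reads that fit several places may not be counted. The authors' treatment of such reads was not given in the sources used here. Recurring sequence was therefore counted. The share of 36-base words within 1000 bases of a gene's first start that occur elsewhere in the genome had a median of 0.305% in members open in both libraries and 9.66% in members open in neither. Of the 81 members open in neither, 42 had under 10% and 11 had over 50%. These shares were not computed for all genes, so no background stands beside them. Cyp2c29 was at the top with 90.2%. Cyp7a1 and Cyp2e1 had 0% and no promoter peak. Across the whole Cyp2c array 40.6% of words recurred and across the Cyp3a array 44.5%, against 13.98% across the Cyp4f array. The part of repeated sequence in the calls was not tested.

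The authors' table of false discovery rates of the cleavage rate lists stretches under 0.05, which is a wider set than the peaks. None of the 81 members without a promoter peak had such a stretch within 1000 bases of a start in either library. For all genes open in neither library the same held for 96.8%. In the 15 members open in both, the stretches covered a median of 386 bases in replicate 1 and 301 in replicate 2, against 909 and 948.5 for all genes open in both.

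The sequence around P450 starts was poor in CpG. The ratio of observed to expected CpG in the 500 bases on each side of the first start had a median of 0.150 over the 100 members and 0.553 over all genes. In members open in both libraries the median was 0.483, and in all genes open in both it was 0.735. In members open in neither it was 0.133, beside 0.202 for all such genes. Of the 9 members with a ratio of at least 0.6, 7 were open in both libraries (77.8%), beside 85.4% of all genes above that ratio. Cyp26a1 (0.726) and Cyp24a1 (0.678) were the remaining 2. Of the 91 members under the ratio 8 were open (8.79%), beside 25.7% of all genes under it. The members' share was close to that of all genes above the ratio and lower than theirs under it.

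**Figure D4:**
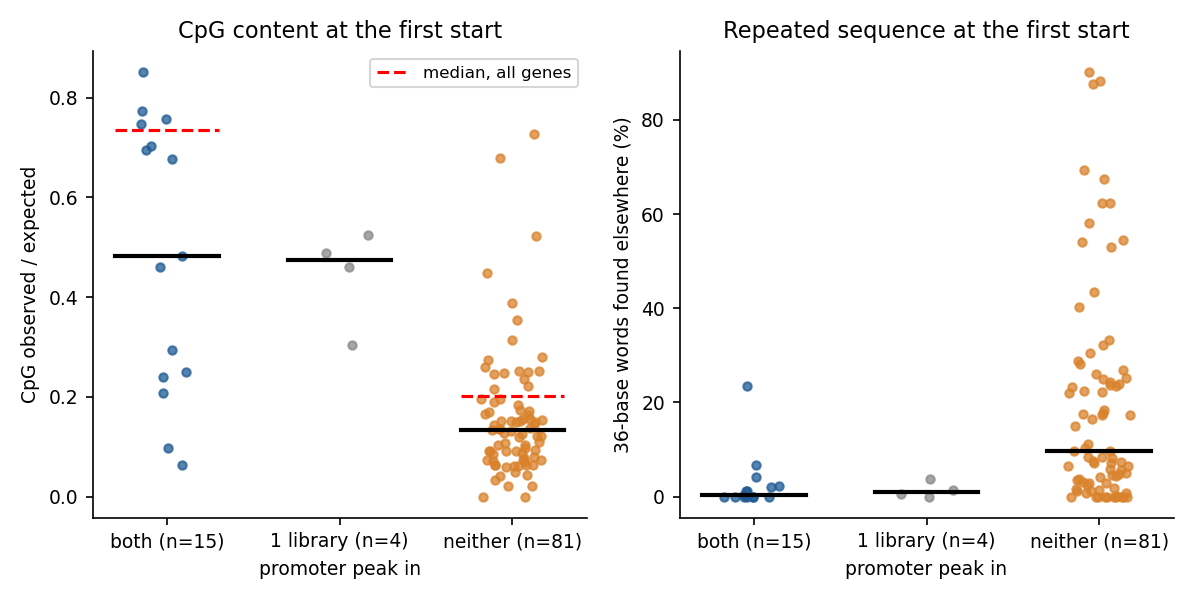
Left, CpG observed over expected around the first start of each P450 gene; right, the percent of 36-base words near the start that recur in the genome; each point is 1 gene, placed by whether a promoter peak was found in both libraries, 1 library or neither, and black lines are medians. The 81 genes open in neither have a median CpG ratio of 0.133, under the 0.202 of all such genes (red dashes), and spread up to 90.2% recurring words.

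Promoter letters were then compared in windows from 250 bases before to 50 after the first start. The letters CAAAGTCCA, bound by the liver factor HNF4, were found on either strand in 11 of the 81 closed members (13.6%), beside 0.608% of all closed genes. They were in 0 of the 15 open members, beside 0.257% of all open genes. That share is too low for 15 windows to show a contrast between open and closed members. Of these 11 members 6 were Cyp2c genes, 4 were Cyp3a genes and 1 was Cyp8b1. Paralogs copied with their promoters are not independent cases, and several of these sites are alike letter for letter beyond the motif. The FOXA letters TGTTTAC were in 12.3% of closed members and 3.97% of all closed genes, with 5 of the 10 matches in Cyp3a genes. TATAAA, the TATA box, was in 40.7% and 20.2%, and in none of the 15 open members, beside 7.02% of all open genes.

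Representative HNF4 matches are shown because their share in closed members was far from that in all closed genes; they were chosen after their values were seen. Each line is 29 bases upstream of the first start on the gene's strand (GRCm38.p6), with the motif in capitals. The motif begins 99 bases before the start in Cyp3a16 (chr5:145469804-145469832, minus), 67 in Cyp8b1 (chr9:121916354-121916382, minus), 125 in Cyp2c65 (chr19:39060880-39060908, plus), 116 in Cyp2c67 (chr19:39649149-39649177, minus) and 124 in Cyp2c68 (chr19:39741160-39741188, minus).
Cyp3a16: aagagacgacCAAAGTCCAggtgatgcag
Cyp8b1: agcctctgagCAAAGTCCAagggcaggaa
Cyp2c65: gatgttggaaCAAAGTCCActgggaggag
Cyp2c67: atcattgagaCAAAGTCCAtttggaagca
Cyp2c68: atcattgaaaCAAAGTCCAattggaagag

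The 29 bases of Cyp3a16 were the same in Cyp3a41a and Cyp3a41b, 95 bases before the start in both. No start of these genes had a peak or a listed stretch in either library, so nothing was measured at these letters beyond the absence of a call.

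The open members had other letters. GCGTG was in 12 of 15 windows of open members (80%), beside 51.9% of all open genes, 9.88% of closed members and 17.4% of all closed genes. GGGCGG was in 60% of open members and 62.3% of all open genes. Both motifs hold a CpG. The median CpG ratio was 0.483 in open members, lower than the 0.735 of all open genes. It was 0.133 in closed members and 0.202 in all closed genes. The part of CpG content in these motif shares was not tested. The ETS letters CCGGAAG were in 1 of 15 open members (6.67%), beside 17.9% of all open genes. The sterol element, through which cholesterol genes are controlled, was sought only as TCACNCCAC, and these letters were not found in the window of Cyp51. Other spellings of the element were not searched, so its absence cannot be concluded.

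**Figure D5:**
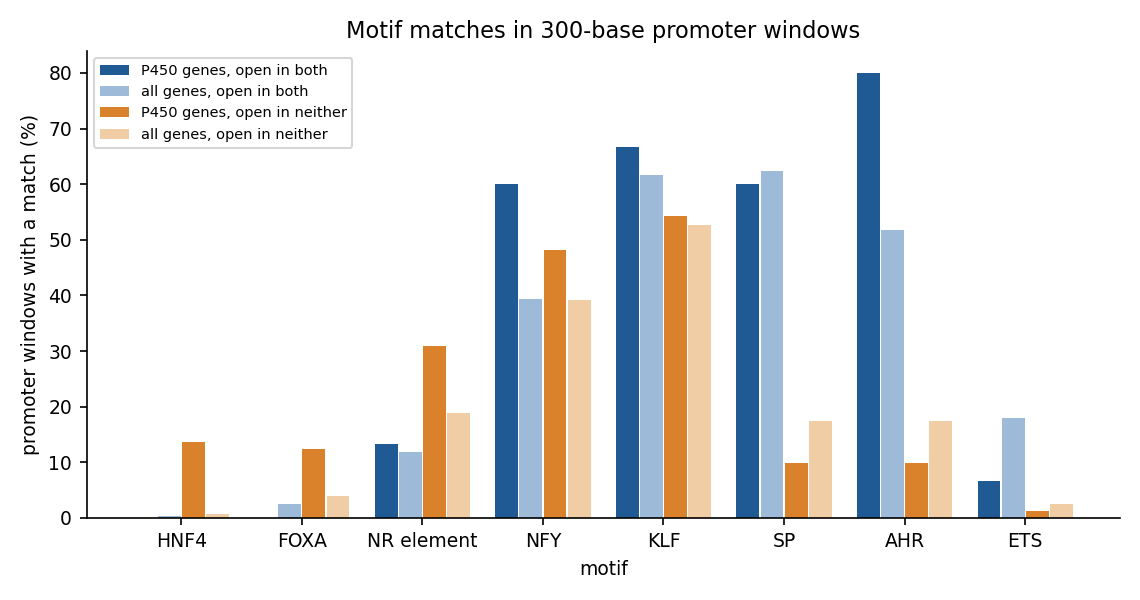
Percent of promoter windows (250 bases before to 50 after the first start) that hold each motif, for P450 genes and for all genes, split by promoter peaks in both libraries or in neither; the NR element is AGGTCA, the core bound by nuclear receptors. HNF4 letters stand at 13.6% in closed P450 genes and 0.608% in all closed genes, and the AHR core at 80% and 51.9% in open ones.

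Footprints were present in a promoter peak in both libraries at 12 of the 15 open members (80%), beside 94.2% of all genes open in both. The exceptions were Cyp2j6, Cyp2j9 and Cyp4f16, which are among the lowest peaks. Over members with any promoter peak there were 65 footprints in replicate 1 and 36 in replicate 2. Of these, 21 and 23 overlapped one of the other library, a share that was not computed for all promoter footprints. GCGTG was the most frequent of the 17 motifs searched. It was found in 13.8% and 25% of the members' footprints widened by 5 bases, beside 9.17% and 7.78% of all promoter footprints. These are 9 footprints in each library. Shared footprints with it lay at Cyp20a1, Cyp2u1, Cyp51, Cyp46a1, Cyp4f39 and Cyp1b1. The letters of GATA factors (AGATAA), HNF4, FOXA and CEBP (TTGCGCAA) were in 0 of them in either library, and in at most 0.235% of all promoter footprints.

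Of the 15 members open in both libraries 13 had a lower value in replicate 2 (86.7%, beside 90.7% of all genes open in both). The median log2 ratio of replicate 2 to replicate 1 was -0.42 in the members and -0.70 in all genes open in both. The scaling between libraries, not given in the sources used here, sets this ratio in part. Against genes of most similar height, 1 of the 15, Cyp39a1, lay outside the central range from the 5th to the 95th percentile. Its log2 ratio was -1.32 beside a range of -1.12 to 0.29. Such a range leaves some genes outside by construction, so 1 of 15 is not read as a feature of this gene. The peak at Cyp39a1 also covers a start of Slc25a27, as given above.

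Distal sites were taken as peaks over 1000 bases from any start of any gene and within 50 kb of the P450 gene. There were 76 such sites in replicate 1 and 56 in replicate 2. Of these, 44 and 46 overlapped a site of the other library by at least 1 base. The overlapping share of all distal sites is not given here, so these counts are a description only. At least 1 shared site lay near 30 of the 100 members (30%), beside 54.7% of all genes. Members had a mean of 0.6 shared sites and all genes 1.26. The shared sites themselves were not low, with medians of 1.53 and 1.39 beside 1.40 and 1.05 for all shared distal sites. For 14 of the 44 the nearest protein-coding gene was a P450 gene. Only 11 members (11%) were the nearest gene of a shared distal site, beside 27.9% of all genes.

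Cyp2w1 had the most shared sites near it, 7 by the peaks of replicate 1, followed by Cyp1a1, Cyp1a2 and Cyp4x1 with 4 each. Cyp24a1, Cyp2s1, Cyp4f17 and Cyp4f39 had 3 each, and Cyp26a1 and Cyp26c1 had 2, as did 5 other members. Cyp1a1 and Cyp1a2 shared the same 4 sites, and Cyp26a1 and Cyp26c1 the same 2. The highest site of all, near Cyp4x1 at chr4:115095721-115096100 (12.6 and 6.14), was nearest to Pdzk1ip1, and another of that group lay in an exon of the erythroid regulator gene Tal1 (2.24 and 1.43). By mean rank over both libraries, next came chr5:139372161-139372400 near Cyp2w1 (8.54 and 5.38), inside the gene 3110082I17Rik. The third was chr9:57655821-57656020 near Cyp1a1 and Cyp1a2 (6.72 and 3.83), 2190 bases from Csk.

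The other 7 of the 10 highest by mean rank included 4 near Cyp2w1. Of these, chr5:139364241-139364460 (4.41 and 4.52) and chr5:139398461-139398660 (5.05 and 2.98) lay in 3110082I17Rik, and chr5:139382841-139383120 (3.28 and 2.40) lay in both that gene and Gpr146. The fourth, chr5:139331781-139331980 (2.75 and 1.84), was nearest to Cox19. One near Cyp2s1 at chr7:25756081-25756420 (3.94 and 2.20) was 853 bases from the receptor gene Axl, and one near Cyp4x1 at chr4:115085661-115085880 (2.96 and 1.93) was 2828 bases from Pdzk1ip1. Only 1 of the 10 had a P450 gene as its nearest gene, a site in an exon of Cyp4f17 at chr17:32528841-32529060 (3.71 and 1.71).

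The second and the third highest are printed as the highest shared distal sites by mean rank that are short enough to show whole, on the plus strand, with footprint bases of either library in capitals.
Cyp2w1 region: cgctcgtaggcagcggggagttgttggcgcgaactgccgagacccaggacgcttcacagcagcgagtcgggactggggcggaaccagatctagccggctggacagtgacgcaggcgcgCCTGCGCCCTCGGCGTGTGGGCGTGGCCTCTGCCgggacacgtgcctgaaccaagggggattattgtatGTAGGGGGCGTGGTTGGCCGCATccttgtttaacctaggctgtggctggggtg
Cyp1a1 and Cyp1a2 region: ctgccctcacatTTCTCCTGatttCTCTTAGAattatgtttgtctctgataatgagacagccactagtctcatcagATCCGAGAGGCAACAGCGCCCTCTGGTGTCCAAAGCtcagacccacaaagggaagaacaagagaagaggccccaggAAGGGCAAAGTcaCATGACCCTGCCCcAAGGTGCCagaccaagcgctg

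Footprints covered 57 of the 240 bases of the Cyp2w1 site and 84 of the 200 of the Cyp1a1 and Cyp1a2 site. The Cyp2w1 site held GCGTG at 3 places, 131, 139 and 195 bases from its left end, and the E-box CACGTG at 157. None of the 17 motifs as spelled was found in the Cyp1a1 and Cyp1a2 site. Other spellings of these motifs were not searched, so the absence of such sites cannot be concluded.

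Some members without a promoter peak had a shared distal site for which they were the nearest gene. Besides the intronic Cyp26b1 site, Cyp26a1 had chr19:37704028-37704160 (1.55 and 1.44), 2492 bases from the gene. Cyp8b1 had chr9:121928731-121928869 (0.936 and 0.859), 12426 bases away. Cyp2s1 had chr7:25848101-25848260 (1.95 and 1.59), which is also within reach of Cyp2b10. No distal site in the Cyp3a family was shared by both libraries, and the Cyp2c array had 1, before Cyp2c55, at chr19:38982101-38982231 (0.628 and 0.471). All 3 Cyp26 genes had at least 1 shared distal site, and 1 of the 6 steroid hormone enzymes did, Cyp11a1.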

How the data were processed

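DNase-seq was made from 2 libraries of 1 group, so no test between groups exists and all results are counts and values. Per the file headers and notes deposited with each library, the authors derived peaks, footprints and false discovery rates from that library's own mm10 alignments, without pooling. The peak caller and its threshold, not given in the sources used here, could change every count. The peak signal deposited by the authors comes in whole steps of 0.0123 (replicate 1) and 0.0139 (replicate 2). A median peak held 100 and 90 steps, and Poisson intervals (95%) take 1 step as 1 read. The deposited false discovery rate (a q-value) lists stretches under 0.05. The deposited footprint score is constant, so positions alone were used.

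Starts were those of protein-coding transcripts in GENCODE vM21. Peaks were called shared at 1 base of overlap. Sequences came from NCBI GRCm38.p6. Words, CpG and motifs were counted with Python 3.11.15, numpy 2.4.6, pandas 2.3.3, pysam 0.24.0 and numba 0.67.0. Promoter and distal calls were tested on simulated data. The members, gene lists and motifs were chosen with earlier results of these data known. The text names every member with a promoter peak, the first 3 by alphabet of closed families, the 10 members with most shared distal sites, the 10 highest of those sites, and up to 3 high and 3 closed genes per partner list. Other names were chosen after their values were seen. 1 gene that the rule names is not reported here. Among the partner genes Fdx2 was matched as Fdx1l. Each count was repeated with the shorter peak list, with the upper 50% of peaks, with other distances, starts and overlaps, and without each replicate.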

Additional observations from a re-analysis of the deposited data

How the results depend on the processing

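The count of open P450 promoters was 15 and ran from 13 to 17 when distances, starts or a replicate were changed. It was 10 with the shorter peak list (48% of all genes) and 6 with the upper 50% of peaks (45.1% of all genes). The shorter list lost Cyp1a1, Cyp2j6, Cyp2j9, Cyp4f16 and Cyp4v3. Leaving out peaks nearer to another gene lost Cyp39a1, and taking the first start only lost Cyp2w1. A limit of 500 bases lost Cyp1b1 and Cyp2w1, one of 2500 bases added Cyp26b1, and starts of any transcript, chosen after seeing the data, added Cyp4f37. Requiring the promoter peaks of both libraries to overlap, also added later, lost Cyp2j9.

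The median promoter value over both libraries, 1.28, was 2.22 with the shorter list and 3.45 with the upper 50%, where 6 members had a footprint in both libraries instead of 12. Members with a shared distal site, 30, came to 17 with the shorter list, 17 with the upper 50% and 16 when a P450 gene had to be the nearest gene. The shared distal sites, 44, came to 20, 24 and 14 under these, 24 within 20000 bases and 76 within 100000. Leaving out a replicate gave 17 open promoters either way, 39 to 44 members with a distal site, 56 to 76 distal sites, 15 members with a footprint, and medians of 0.984 to 1.37. These values rest on 1 library, so distal sites did not have to overlap a site of the other. Of all 45 values recomputed for these results, 31 stayed within the spread or 1.5 times and 14 moved. The cause was not tested, other than that fewer peaks, a wider reach or a dropped overlap rule enter by construction. No paired analysis was possible because both libraries belong to 1 group. Low peaks rest on few reads, so a missing call says only that no site was called at this depth.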
